A study of Mus musculus with 6 samples.

Results

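Polycomb repressive complex 2 (PRC2) is the enzyme that methylates lysine 27 of histone H3, and its trimethyl mark is bound by Polycomb repressive complex 1 (PRC1) and goes with genes that are kept silent. A working core consists of 1 of the alternative catalytic subunits, EZH1 or EZH2, with EED, SUZ12, and 1 of the histone-binding proteins RBBP4 or RBBP7. Accessory subunits, among them JARID2, AEBP2, MTF2, and PHF19, bind this core and affect where it sits on chromatin. In blood formation, EZH2 is known mostly from dividing cells and EZH1 from slowly dividing hematopoietic stem cells (HSCs). The 10 genes described here, 6 of the core (*Ezh1*, *Ezh2*, *Eed*, *Suz12*, *Rbbp4*, and *Rbbp7*) and 4 accessory (*Jarid2*, *Aebp2*, *Mtf2*, and *Phf19*), were taken by symbol from a table of 26264 genes, and each symbol was found.

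Bulk RNA sequencing (RNA-seq) was performed on HSCs sorted from the bone marrow of untreated female mice that were 8 weeks old, 3 wild-type (WT, C57Bl/6) and 3 *Irf1-/-* (B6.129S2-Irf1 tm1Mak/J), with 1 library per mouse. The comparison asks which transcripts differ when the transcription factor IRF1 is missing. The deletion is present in the whole body, so the cells around the HSCs lacked IRF1 as well, and effects within HSCs and from their surroundings cannot be told apart. Libraries are numbered 2, 3, and 4 in each genotype, and values are given in that order throughout. Reads counted on genes numbered 43138521, 57281017, and 45129929 in *Irf1-/-* libraries and 59658080, 45332573, and 43267486 in WT libraries. WT replicate 4 stood apart in its granulocyte genes, and results are also given without it. Values are normalized counts, that is, reads per gene divided by 1 size factor per library. *Irf1* itself was at 9267, 9524 and 9287 in *Irf1-/-* HSCs and 10122, 11119.6 and 12058 in WT HSCs, with a log2 fold change of −0.24 (SE 0.088, limma adjusted *P* = 0.17). The 3 *Irf1-/-* libraries lay below the 3 WT libraries, but a count over the whole gene includes any part that the allele leaves in place and so does not check the genotype labels. The interferon-inducible genes *Gbp2* and *Psmb9* were picked once their values were known, and were at 1653, 1878 and 1847 in *Irf1-/-* HSCs and 4379, 4209 and 4187 in WT HSCs for *Gbp2*. *Psmb9*, a subunit of the immunoproteasome and a known target of IRF1, was at 4825, 4948 and 5257 in *Irf1-/-* HSCs and 9553, 10164 and 9865 in WT HSCs. Both separated the libraries by their labelled genotype and fell, with log2 fold changes of −1.25 for *Gbp2* (limma adjusted *P* = 3.01e-06) and −0.98 for *Psmb9* (limma adjusted *P* = 9.98e-06).

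Among the PRC2 genes, *Ezh1* was higher and *Ezh2* and most other subunits were slightly lower in *Irf1-/-* HSCs, and *Ezh1* was the one member whose difference passed an adjusted *P* of 0.05. Fold changes are *Irf1-/-* over WT on the scale of log2(normalized count + 1), and *P* values come from limma with adjustment over the 17404 genes whose normalized counts averaged 10 or more, a minimum that 10 of 10 members passed. A gene was called when its adjusted *P* was under 0.05 and its absolute log2 fold change was above 0.58. By this rule limma called 0 of 10 members, against 333 tested genes (1.91%), and edgeR and DESeq2 on recovered reads also called 0. By the adjusted *P* alone, 1 member passed, beside 3.22% of tested genes, of which 1.73% were higher and 1.49% lower in *Irf1-/-* HSCs. In edgeR and DESeq2 1 member passed as well. Tested genes that passed numbered 576 in edgeR, and in DESeq2 1282 of the 13094 to which it gave an adjusted *P*. An unadjusted *P* under 0.05 was found for 2 members in limma, 3 in edgeR, and 3 in DESeq2, and for 16.5% of tested genes in limma. The libraries of the genotypes did not overlap for 1 member that was higher (*Ezh1*), where 10.6% of tested genes were higher in this way, and for 3 that were lower (*Ezh2*, *Mtf2*, and *Phf19*), where 9.27% were lower. The median log2 fold change was −0.13 over the 10 members, −0.14 over the core, and −0.063 over the accessory subunits, beside −0.0028 over tested genes. Of the members, 8 had a fold change below 0, as had 50.4% of tested genes. In bulk RNA, fewer cells of a type and less RNA per cell cannot be told apart.

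The catalytic subunits had fold changes in opposite directions. *Ezh1*, the catalytic subunit with the weaker methyltransferase activity, was at 8439.8, 8482 and 9621 in *Irf1-/-* HSCs and 5805, 6674 and 6356 in WT HSCs. The lowest *Irf1-/-* library was above the highest WT library, and *Irf1-/-* replicate 4 was the highest of all. Its mean was 8848 ± 670 (SD, n = 3 mice) against 6278 ± 440 (SD, n = 3 mice), and *Ezh1* rose by a log2 fold change of 0.49 (SE 0.091, 95% interval 0.30 to 0.69, limma adjusted *P* = 0.00933), which is below the 0.58 that a call required. The adjusted *P* was above 0.05 without *Irf1-/-* replicate 4 (0.072) or WT replicate 2 (0.0576), and when the prior variance was fitted without a trend (0.206), and over the 16 alternatives it ranged from 3.48e-05 to 0.206. *Ezh2*, the more active catalytic subunit, was at 3679, 3390.0 and 3202 in *Irf1-/-* HSCs and 4269, 4454 and 3774 in WT HSCs. Here each *Irf1-/-* library was below each WT library, with *Irf1-/-* replicate 4 the lowest and a narrow gap between *Irf1-/-* replicate 2 and WT replicate 4. The mean was 3424 ± 240 (SD, n = 3 mice) against 4166 ± 352 (SD, n = 3 mice), with a log2 fold change of −0.28 (SE 0.098, 95% interval −0.49 to −0.072, limma adjusted *P* = 0.152), so the difference did not pass after adjustment, nor in any of 16 alternatives (adjusted *P* 0.0555 to 0.475). *Ezh1* and *Suz12* lie on chromosome 11, as *Irf1* does, and the strain name gives a 129S2 origin for the mutated allele. Effects of the missing IRF1 and of 129S2 DNA that may remain beside the allele cannot be told apart for genes that such DNA covers. Its extent was not examined, nor was whether it reaches *Ezh1* or *Suz12*. A shared chromosome does not make these genes neighbours of *Irf1*.

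Because both catalytic subunits are read from the same library, their ratio is not altered by scaling with 1 factor per library. The ratio of *Ezh2* to *Ezh1* normalized counts was 0.436, 0.4 and 0.333 in *Irf1-/-* HSCs and 0.735, 0.667 and 0.594 in WT HSCs. The genotypes did not overlap, and replicate 4 had the lowest ratio in each genotype. On the log2 scale the ratio was −1.37 ± 0.20 in *Irf1-/-* HSCs and −0.59 ± 0.15 in WT HSCs (mean ± SD, n = 3 mice each), a difference of −0.78 (*P* = 0.1 by an exact permutation test, two-sided, which cannot go lower with 3 mice a group).

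EED binds trimethylated lysine 27, and SUZ12 holds the core together. *Eed* was at 4466, 4977 and 4255 in *Irf1-/-* HSCs and 5102, 5377 and 4578 in WT HSCs, and the genotypes overlapped. *Suz12* was at 2343, 2173 and 2000.4 in *Irf1-/-* HSCs and 2585, 2404 and 2172 in WT HSCs, also with overlap, and its lowest value came from *Irf1-/-* replicate 4. The log2 fold changes were −0.14 for *Eed* (SE 0.097, limma adjusted *P* = 0.557) and −0.14 for *Suz12* (SE 0.106, limma adjusted *P* = 0.61), so neither passed. With 1 library left out they ranged over −0.20 to −0.085 for *Eed* and −0.20 to −0.076 for *Suz12*. The histone-binding proteins RBBP4 and RBBP7 are shared with other chromatin complexes. *Rbbp4* was at 18686, 20741 and 17609 in *Irf1-/-* HSCs and 20654, 22624 and 20584 in WT HSCs. *Rbbp7* was at 23802, 29125 and 23211 in *Irf1-/-* HSCs and 27292, 28967 and 25620.0 in WT HSCs, with *Irf1-/-* replicate 3 the highest of the 6 libraries. Both genes overlapped between genotypes, and their log2 fold changes were −0.17 for *Rbbp4* (limma adjusted *P* = 0.41) and −0.11 for *Rbbp7* (limma adjusted *P* = 0.673), the latter ranging over −0.21 to −0.05 with 1 library left out. The ratio of *Rbbp4* to *Rbbp7* was 0.785, 0.712 and 0.759 in *Irf1-/-* HSCs and 0.757, 0.781 and 0.803 in WT HSCs. The ratios overlapped, and their difference on the log2 scale was −0.054 (*P* = 0.5 by the same exact permutation test).

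The accessory subunits define 2 forms of the complex, one with JARID2 and AEBP2 and the other with a Polycomb-like protein such as MTF2 or PHF19. *Jarid2* was at 5681, 4944 and 5116 in *Irf1-/-* HSCs and 4461, 5334 and 5423 in WT HSCs. *Aebp2* was at 2924, 2897 and 3005 in *Irf1-/-* HSCs and 3073, 3058 and 2711 in WT HSCs. Both genes overlapped between genotypes, with log2 fold changes of 0.052 for *Jarid2* (SE 0.1, limma adjusted *P* = 0.874) and −0.0003 for *Aebp2* (SE 0.094, limma adjusted *P* = 0.999). *Mtf2* was at 7796, 7916 and 7355 in *Irf1-/-* HSCs and 8277, 8525 and 8356 in WT HSCs. *Phf19* was at 734, 824 and 718 in *Irf1-/-* HSCs and 899, 1003 and 862 in WT HSCs. For these Polycomb-like genes each *Irf1-/-* library was below each WT library, and for *Phf19* the gap between them was smaller than the SD of the WT mice. The log2 fold changes were −0.13 for *Mtf2* (SE 0.081, limma adjusted *P* = 0.504) and −0.28 for *Phf19* (SE 0.132, 95% interval −0.56 to 0.005, limma adjusted *P* = 0.313), and neither passed. Of the 4 accessory genes, limma, edgeR, and DESeq2 passed 0 after adjustment, with 0, 1, and 1 at an unadjusted *P* under 0.05. The direction of *Jarid2* and *Aebp2* was not stable: *Jarid2* was at −0.038 without WT replicate 2 and −0.0069 without *Irf1-/-* replicate 2, and *Aebp2* at 0.033 with quantile normalization.

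Of 5 further PRC2 partners, 4 were tested and limma found 0 with an adjusted *P* under 0.05, as did edgeR and DESeq2, while 1 had an unadjusted *P* under 0.05 in each of these tools. That gene was *Phf1*, the remaining Polycomb-like protein, at 1549, 1361 and 1767 in *Irf1-/-* HSCs and 1002, 1227 and 1398 in WT HSCs. Its libraries overlapped between genotypes, with a log2 fold change of 0.37 (limma adjusted *P* = 0.194). The others were *Epop* (−0.031), *Lcor* (−0.067), and *Lcorl* (−0.25), given as log2 fold changes. *Ezhip*, which encodes an inhibitor of PRC2, was under the minimum, at 2.13 in *Irf1-/-* replicate 2 and listed at 0 in the other 5 libraries.

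Levels of different subunits were compared as normalized counts per kilobase of merged exons. In WT HSCs the order from high to low was *Rbbp7* (9382 ± 575, SD, n = 3 mice), *Rbbp4* (4662 ± 254), *Eed* (2430.4 ± 197), *Mtf2* (1817 ± 27.5), *Ezh2* (1475 ± 124), *Ezh1* (1032 ± 72.3), *Jarid2* (754 ± 79), *Suz12* (546 ± 47.3), *Aebp2* (349 ± 24.3), and *Phf19* (246 ± 19.6). Each step of this order was larger than the sum of the SDs of the neighbours. In *Irf1-/-* HSCs *Ezh1* stood at 1455 ± 110 and *Ezh2* at 1212 ± 85.1 counts per kilobase (SD, n = 3 mice), so that the catalytic subunits exchanged places, and the other 8 members kept theirs. With the length of the longest protein-coding transcript, an alternative added after the data were seen, *Ezh1* was at 1492 counts per kilobase in WT HSCs and *Ezh2* at 1571, so this pair no longer differed beyond its spread there. Nor did *Suz12* (546 ± 47.3) and *Aebp2* (496 ± 34.5) in WT HSCs, and in *Irf1-/-* HSCs they were at 497 and 495. In *Irf1-/-* HSCs *Ezh1* (2103) then stood above *Mtf2* (1894).

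*Ezh2* and *Suz12* are known to be transcribed with the cell cycle, and the values of 30 proliferation genes are therefore given beside them. All 30 were tested, and 30 had fold changes below 0, with a median log2 fold change of −0.50 beside −0.0028 over tested genes. An adjusted *P* under 0.05 was reached by 8 in limma, 9 in edgeR, and 24 in DESeq2, and 4 were called by limma. The unadjusted *P* was under 0.05 for 30 in limma, 30 in edgeR, and 29 in DESeq2. The 4 called genes fell: *Top2a*, a topoisomerase (−0.77), *Mki67*, which encodes the marker Ki-67 (−0.67), *Aurkb*, a mitotic kinase (−0.63), and *Tpx2*, a spindle protein (−0.59), given as log2 fold changes. *Top2a* was at 7874, 8285 and 5166 in *Irf1-/-* HSCs and 13177, 12858 and 9810.1 in WT HSCs, with no overlap and its lowest value in *Irf1-/-* replicate 4. The summed normalized counts of the list were 240213, 246933 and 197324 in *Irf1-/-* HSCs and 324846, 355954 and 261101 in WT HSCs. The sum was lowest in *Irf1-/-* replicate 4, in which *Ezh2*, *Eed*, *Suz12*, *Rbbp4*, *Rbbp7*, *Mtf2*, and *Phf19* were lowest too and *Ezh1* highest. How many of all tested genes were lowest or highest in that library was not counted. Among WT libraries the sum was highest in replicate 3, in which *Ezh2*, *Eed*, *Rbbp4*, *Rbbp7*, *Mtf2*, and *Phf19* were highest too. *Ezh1* was also highest of the WT libraries there, while *Suz12* was highest in WT replicate 2. The adjusted *P* in limma was above 0.05 for *Top2a* without *Irf1-/-* replicate 4 (0.0532), WT replicate 2 (0.0548), or WT replicate 3 (0.0674), for *Mki67* without *Irf1-/-* replicate 2 (0.125), *Irf1-/-* replicate 4 (0.168), WT replicate 2 (0.143), or WT replicate 3 (0.13), for *Aurkb* without *Irf1-/-* replicate 3 (0.0565), *Irf1-/-* replicate 4 (0.142), WT replicate 2 (0.109), or WT replicate 3 (0.137), and for *Tpx2* without *Irf1-/-* replicate 2 (0.0882), *Irf1-/-* replicate 4 (0.207), WT replicate 2 (0.154), or WT replicate 3 (0.179). The number of proliferation genes with an adjusted *P* under 0.05 in limma was 0 when *Irf1-/-* replicate 4, WT replicate 2, or WT replicate 3 was left out, 3 when *Irf1-/-* replicate 2 was, and 24 when WT replicate 4 was, and it was 0 of 30 without a trend. It was 15 with quantile normalization, 18 with median centring, and 29 with the replicate number as a block. *Tpx2* was also lost with a pseudocount of 0.5 (0.0513) and with no minimum (0.0546). The part of proliferation in the values of the PRC2 genes was not tested.

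**Figure D1:**
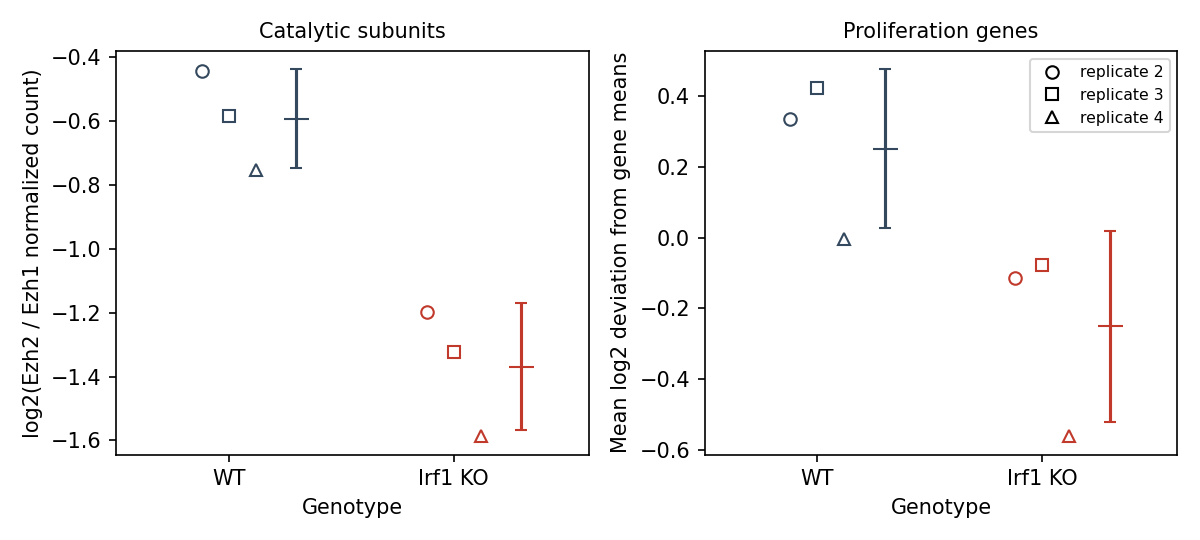
The log2 ratio of *Ezh2* to *Ezh1* normalized counts (left) and the mean log2 deviation of the 30 proliferation genes from their means over the 6 libraries (right), in WT (dark) and *Irf1* KO (red) HSCs. Symbols are libraries, and the bar beside them is the mean ± SD of 3 mice. In each panel the *Irf1-/-* libraries lie below the WT libraries, and *Irf1-/-* replicate 4 is the lowest.

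PRC1, the complex that binds the mark through its CBX proteins and ubiquitinates histone H2A, was represented by 23 tested genes. Of these, 1 rose and 0 fell at an adjusted *P* under 0.05 in limma, and 1 passed in edgeR and 3 in DESeq2. The 3 in DESeq2 stand beside 1282 of the 13094 tested genes to which it gave an adjusted *P*. An unadjusted *P* under 0.05 was found for 3 in each tool, beside 16.5% of tested genes in limma, and the median log2 fold change was −0.042. The gene that rose in limma was *Cbx7*, a reader of the mark that HSCs are known to use, at 4438, 4046 and 4415 in *Irf1-/-* HSCs and 3246, 3281 and 3442 in WT HSCs. The genotypes did not overlap, and *Cbx7* rose by a log2 fold change of 0.37 (SE 0.088, limma adjusted *P* = 0.0362). Its adjusted *P* was above 0.05 without *Irf1-/-* replicate 2 (0.129), *Irf1-/-* replicate 4 (0.174), WT replicate 2 (0.152), or WT replicate 3 (0.115), with median centring (0.051), and without a trend (0.238). *Cbx6*, another reader, had a log2 fold change of 0.26 (limma adjusted *P* = 0.125), and *Pcgf6*, of a variant PRC1, had −0.36 (limma adjusted *P* = 0.136). *Cbx6* passed with quantile normalization (0.028) and in DESeq2 (0.0447), and *Pcgf6* without WT replicate 4 (0.0492) and in DESeq2 (0.0498).

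The demethylases UTX and JMJD3 remove the methyl groups that PRC2 adds. *Kdm6a*, which encodes UTX, was at 7055, 6555 and 6209 in *Irf1-/-* HSCs and 4872, 5714 and 4989.5 in WT HSCs. *Kdm6b*, which encodes JMJD3, was at 319.8, 363 and 369.6 in *Irf1-/-* HSCs and 236, 229.9 and 267 in WT HSCs. For both genes each *Irf1-/-* library was above each WT library. The log2 fold changes were 0.35 for *Kdm6a* (SE 0.093, limma adjusted *P* = 0.0617) and 0.52 for *Kdm6b* (SE 0.191, limma adjusted *P* = 0.177). Of the 2 genes, limma and edgeR passed 0 after adjustment and DESeq2 passed 1, while 2 had an unadjusted *P* under 0.05 in each tool. *Kdm6a* passed in limma without WT replicate 3 (0.048), with quantile normalization (0.0233), and with the replicate number as a block (0.0329).

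Genes of other chromatin complexes were looked at as lists. Of 6 genes of PR-DUB, which removes the ubiquitin that PRC1 adds, limma, edgeR, and DESeq2 each passed 0 after adjustment, and 1 had an unadjusted *P* under 0.05 in each. The median log2 fold change was 0.052, with −0.29 for *Foxk2*, 0.41 for *Foxk1*, and −0.13 for *Asxl2*. *Foxk2* passed in limma without WT replicate 4 (0.0208). Of 12 genes of the MLL and COMPASS methyltransferases, which act against Polycomb silencing, each tool passed 0, and 0 had an unadjusted *P* under 0.05 in each. Their median was −0.11, and the genes with the smallest *P* were *Ash2l* (−0.19), *Dpy30* (−0.18), and *Kmt2a* (−0.14), given as log2 fold changes. The list of other complexes that use RBBP4 or RBBP7 held 23 tested genes. Its median was −0.081, and limma and edgeR passed 0 after adjustment while DESeq2 passed 4, with 7, 8, and 8 genes at an unadjusted *P* under 0.05 in limma, edgeR, and DESeq2. The 7 genes in limma stand beside 16.5% of tested genes, and the 4 that passed in DESeq2 beside 1282 of the 13094 tested genes to which it gave an adjusted *P*. *Smarca1*, a nucleosome remodeller, was at 290.0, 271 and 221 in *Irf1-/-* HSCs and 90.5, 118 and 179.7 in WT HSCs, without overlap, with a log2 fold change of 1.05 (limma adjusted *P* = 0.0609). *Chd3*, of the NuRD complex, had 0.59 (limma adjusted *P* = 0.0551), and *Hat1*, a histone acetyltransferase, had −0.47 (limma adjusted *P* = 0.073). In limma *Smarca1* passed without WT replicate 4 (0.0155) and with a minimum of 50 (0.0498). *Chd3* passed without WT replicate 2 (0.0309) or WT replicate 4 (0.0474), with a pseudocount of 5 (0.049), with a minimum of 50 (0.0456), and with the replicate number as a block (0.039). *Hat1* passed without WT replicate 4 (0.0045), with quantile normalization (0.043), with median centring (0.0422), and with the block (0.0201). All 3 passed in DESeq2.

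Genes that PRC2 is known to keep silent outside their own lineages were mostly under the minimum. Of 40 developmental regulators, 37 had a mean normalized count under 10, and *Sox2*, *Nkx2-1*, *Hand2*, *Hoxc11*, and *Hoxd9* were listed at 0 in each of the 6 libraries. The summed normalized counts of the 40 genes were 161, 159 and 171 in *Irf1-/-* HSCs and 83.9, 159 and 187 in WT HSCs, which overlapped. The 3 tested genes, *Gata6* (0.79), *Pax6* (0.61), and *Isl1* (−0.18), are given as log2 fold changes, which ranged over 0.43 to 1.16, 0.20 to 1.05, and −0.57 to 0.30 with 1 library left out. Limma and edgeR passed 0 of them after adjustment, DESeq2 gave none of them an adjusted *P*, and each tool found 0 at an unadjusted *P* under 0.05. Of 16 targets known in blood cells, 11 were tested, with a median log2 fold change of 0.22 and 9 of 11 above 0. Limma and edgeR passed 0 after adjustment and DESeq2 passed 2, while 4 had an unadjusted *P* under 0.05 in each tool. The 2 stand beside 1282 of the 13094 tested genes to which DESeq2 gave an adjusted *P*, and the 4 in limma beside 16.5% of tested genes. *Cdkn1a*, which encodes the cell-cycle inhibitor p21, was at 287, 351 and 312 in *Irf1-/-* HSCs and 245, 175 and 144 in WT HSCs. *Hoxa9*, a homeobox gene that is active in HSCs, was at 3939, 4039.8 and 3596 in *Irf1-/-* HSCs and 3184, 3017 and 3313 in WT HSCs. Neither gene overlapped between genotypes, and the log2 fold changes were 0.78 for *Cdkn1a* (limma adjusted *P* = 0.1), 0.28 for *Hoxa9* (limma adjusted *P* = 0.124), and 0.28 for *Hoxa7* (limma adjusted *P* = 0.245). *Cdkn2a*, a classical target of PRC2 and PRC1, was at 1.07, 0 and 0 in *Irf1-/-* HSCs and 0, 1.13 and 1.08 in WT HSCs, so a difference was not detectable at this depth. No measure of histone methylation was analysed here.

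The study defines HSCs as lineage-negative cells with Sca-1, KIT, and CD150 but without CD48 on their surface. *Kit*, the most abundant of the HSC markers, was at 77902, 88715 and 79909 in *Irf1-/-* HSCs and 83185, 84044 and 80517 in WT HSCs, and the genotypes overlapped. *Cd48* transcripts, looked at because of the gate, were present at 431, 279 and 314 in *Irf1-/-* HSCs and 257, 326 and 359 in WT HSCs, also with overlap. *Slamf1*, the gene of CD150, was at 3823, 3412 and 3481 in *Irf1-/-* HSCs and 3198, 3052 and 2848 in WT HSCs, with each *Irf1-/-* library above each WT library and a log2 fold change of 0.24 (limma adjusted *P* = 0.217). Of 12 HSC markers, 9 had fold changes above 0, 7 had an unadjusted *P* under 0.05 in limma, and 2 rose and 1 fell at an adjusted *P* under 0.05 in limma. *Fgd5* rose by a log2 fold change of 0.83 (limma adjusted *P* = 9.13e-05), *Procr* by 0.52 (limma adjusted *P* = 0.0112), and *Ly6a*, the gene of Sca-1, fell (−0.43, limma adjusted *P* = 0.0245). *Slamf1*, *Procr*, and *Ly6a* were picked once their values were known, and *Ly6a* was lost without *Irf1-/-* replicate 2 (0.115), *Irf1-/-* replicate 4 (0.112), or WT replicate 3 (0.0786). Without a trend 0 HSC markers passed in limma, with an adjusted *P* of 0.0511 for *Fgd5*, 0.227 for *Procr*, and 0.262 for *Ly6a*. DESeq2 passed 5, beside 1282 of the 13094 tested genes to which it gave an adjusted *P*. Of 3 markers of multipotent progenitors, *Flt3* rose by 0.67 (limma adjusted *P* = 0.0407), which was lost without *Irf1-/-* replicate 2 (0.0922), *Irf1-/-* replicate 3 (0.127), *Irf1-/-* replicate 4 (0.0747), or WT replicate 3 (0.117) and without a trend (0.358), and *Cd34*, the most abundant, had 0.16. Summed normalized counts of 7 B cell markers were 3170.4, 2939 and 3115 in *Irf1-/-* HSCs and 2855, 3195 and 2751 in WT HSCs, and the most abundant was *Cd79b* (0.088 on the log2 scale), while *Pax5* was under the minimum and *Vpreb1* had −0.54. Those of 6 T and NK cell markers were 472, 528 and 891 in *Irf1-/-* HSCs and 542, 442 and 587 in WT HSCs, the most abundant being *Klrb1c* (0.28), with −0.36 for *Cd3d* and 0.0089 for *Ncr1*, and *Cd3e*, *Cd3g*, and *Cd8a* under the minimum. In both of these lists limma and edgeR passed 0 after adjustment, DESeq2 passed 0 of the 2 B cell and 1 T and NK cell markers to which it gave an adjusted *P*, and each tool found 0 at an unadjusted *P* under 0.05.

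Some megakaryocyte and erythroid markers fell in *Irf1-/-* HSCs, and the granulocyte markers of WT replicate 4 stood apart. The 6 megakaryocyte markers summed to 51251, 33866 and 46258 in *Irf1-/-* HSCs and 58357, 71304 and 56427 in WT HSCs, led by *Itga2b* (−0.56 on the log2 scale, limma adjusted *P* = 0.0922), and *Pf4* fell (−1.11, limma adjusted *P* = 0.00334) and *Gp1ba* fell (−0.69, limma adjusted *P* = 0.0183). *Itga2b* passed without WT replicate 4 (0.0449), and *Gp1ba* was lost without *Irf1-/-* replicate 2 (0.0643), *Irf1-/-* replicate 3 (0.0585), or WT replicate 3 (0.077). The 7 erythroid markers summed to 3759.9, 2257 and 2820.5 in *Irf1-/-* HSCs and 5370.3, 4889.8 and 5633 in WT HSCs, led by *Epor* (−0.28), with *Hbb-bs*, *Hbb-bt*, and *Hba-a1* listed at 0 in each library. Why these globin genes were at 0 was not tested, so the zeros do not show that their RNA was absent, and the sum rests on the other 4 genes. Of the erythroid markers *Klf1* fell (−0.72, limma adjusted *P* = 0.0361) and *Car1* fell (−3.51, limma adjusted *P* = 0.02). *Klf1* was lost without *Irf1-/-* replicate 2 (0.0583), *Irf1-/-* replicate 3 (0.07), WT replicate 2 (0.117), or WT replicate 3 (0.109). Without a trend each marker of these lineages with an adjusted *P* under 0.05 was lost, with an adjusted *P* of 0.238 for *Pf4*, 0.259 for *Gp1ba*, 0.316 for *Klf1*, 0.344 for *Car1*, and 0.33 for *Prtn3*. *Car1* was also lost without *Irf1-/-* replicate 3 (0.0603) or *Irf1-/-* replicate 4 (0.0681), and it did not pass in edgeR (0.0887) or DESeq2 (0.198). The 11 granulocyte and monocyte markers summed to 8763, 8831 and 10963 in *Irf1-/-* HSCs and 6938, 6535 and 14110.1 in WT HSCs. The most abundant of them, *Prtn3*, rose by 0.53 (limma adjusted *P* = 0.0334), which was lost without *Irf1-/-* replicate 2 (0.0619), *Irf1-/-* replicate 4 (0.17), or WT replicate 3 (0.13), and *Mpo* had 0.30 and *Ltf* −1.32. *Ngp*, a neutrophil granule gene picked once its values were known, was at 62.9, 90.7 and 127 in *Irf1-/-* HSCs and 30.4, 24.8 and 2535 in WT HSCs, and *S100a8* at 22.4, 47.5 and 110.0 in *Irf1-/-* HSCs and 46.9, 13.5 and 1033 in WT HSCs. Without WT replicate 4, *Ngp* had a log2 fold change of 1.67 (limma adjusted *P* = 0.0449) in place of −0.49, and *S100a8* 0.93 in place of −0.84. *Ltf* then had 0.61 in place of −1.32 (limma adjusted *P* = 0.501). Without that library, 1 of 10 PRC2 members had an adjusted *P* under 0.05 in limma as before, with *Ezh1* at 0.50 (adjusted *P* = 0.0122) and *Ezh2* at −0.35 (adjusted *P* = 0.0555), and the members' median was −0.17. Without this library 569 genes were called, 2 granulocyte and monocyte markers rose with a list median of 0.60 in place of −0.18, and 3 megakaryocyte and 2 erythroid markers fell. The part of these lineage markers in the values of the PRC2 genes was not tested.

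Genes whose values over the 6 libraries were most like those of the catalytic subunits were found among 12059 tested genes whose normalized counts averaged 100 or more, as a description. The measure was the root mean square difference of log2(normalized count + 1) after each gene was centred on its mean. Closest to *Ezh1* were *Evc2* (0.044), *Il17re* (0.057), and *Tbkbp1* (0.06). *Evc2* was at 1464, 1572 and 1835 in *Irf1-/-* HSCs and 1093, 1218 and 1163 in WT HSCs, without overlap between genotypes. Closest to *Ezh2* were *Mapk6* (0.031), *Fntb* (0.034), and *Cbx5* (0.035). *Cbx5*, which encodes the heterochromatin protein HP1α, was at 6418, 5886 and 5388 in *Irf1-/-* HSCs and 7798, 7836 and 6589 in WT HSCs, and as for *Ezh2* each *Irf1-/-* library was below each WT library.

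Promoter sequence is given for the catalytic subunits, because their fold changes had opposite signs, and around the E2F matches of the other members. Windows of 300 bases around annotated gene starts (RefSeq, GRCm38.p6) were found for 10 of 10 members, 14 windows in all. The 4 words TTTCCCGC, TTTCGCGC, TTTGCCGC, and TTTGGCGC, which together spell the consensus of the cell-cycle factors E2F, were searched on both strands, as was GAAANNGAA, from the element that IRF proteins bind. These motifs were chosen after the windows of the members had been looked at, so the number of matches is a description of these windows. An E2F word was in a window of 3 of 10 members (*Ezh2*, *Suz12*, and *Phf19*) and of 2.6% of 27025 genes, which is 3 of the members' 14 windows and 2.26% of 32851 windows. The IRF word was in 1 of the 14 windows, that of *Eed*, and in 8.56% of all windows, while a longer form with 1 more A at its end, searched first, was in 0 of the 14. The window of *Ezh1* (chr11:101226414-101226713, minus strand) held neither motif. In that of *Ezh2* (chr6:47594981-47595280, minus strand) the match is in capitals. A match is not a binding site, and its absence says only that these letters are not in the window.
Ezh1: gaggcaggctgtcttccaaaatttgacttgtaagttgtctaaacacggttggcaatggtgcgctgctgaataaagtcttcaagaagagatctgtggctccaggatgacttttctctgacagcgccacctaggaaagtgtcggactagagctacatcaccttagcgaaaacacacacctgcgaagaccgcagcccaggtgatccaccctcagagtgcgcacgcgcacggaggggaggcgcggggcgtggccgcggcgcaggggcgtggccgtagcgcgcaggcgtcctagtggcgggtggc
Ezh2: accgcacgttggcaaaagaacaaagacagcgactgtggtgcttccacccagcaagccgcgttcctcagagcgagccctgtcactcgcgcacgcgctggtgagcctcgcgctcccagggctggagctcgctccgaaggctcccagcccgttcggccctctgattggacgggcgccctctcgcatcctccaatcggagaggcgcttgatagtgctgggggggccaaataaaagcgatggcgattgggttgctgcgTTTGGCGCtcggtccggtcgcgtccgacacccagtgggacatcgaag
The E2F matches of the other members, again in capitals, lay in a window of *Suz12* (chr11:79992876-79992905, plus strand) and of *Phf19* (chr2:34914166-34914195, minus strand), of which 30 bases each are shown.
Suz12: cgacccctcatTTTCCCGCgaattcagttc
Phf19: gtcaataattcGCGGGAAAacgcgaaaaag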

How the data were processed

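SMART-Seq v4 amplification attaches no molecular identifiers, so reads are not independent molecules. The authors used Trim Galore, HISAT2 (build mm39 in the submitters' processing notes), and htseq-count, and the deposited signal is a count normalized by DESeq2. Versions, annotation, and strandedness are missing from the sources used here, so a read in overlapping genes may belong to either. Dividing by the value of 1 read gave whole reads for 100% of the deposited values (tolerance 0.02 reads).

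limma 3.58.1 (R 4.3.3, eBayes with trend) was fitted to log2(normalized count + 1), which understates changes of low genes, where counts averaged 10 or more, with Benjamini-Hochberg adjustment. On recovered reads, edgeR 4.0.16 (quasi-likelihood, TMM) called 327 genes and DESeq2 1.42.0 called 504 and gave 4310 tested genes no adjusted *P*. Alternatives changed the pseudocount, minimum, trend, scaling (quantile, median), block, fold threshold, and libraries used. The lists without WT replicate 4, the transcript length, and the motif search were added after the data were seen. That libraries are separate mice is taken from the labels and methods. Lengths came from GENCODE vM1, and chromosomes and promoters from RefSeq GRCm38.p6, by symbol. Python 3.11.15, pandas 2.3.3, numpy 2.4.6, and matplotlib 3.10.9 were used.

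Named genes are the 10 members and *Irf1*, other PRC2 partners, the called genes of each list or else up to 3 with the smallest *P*, the most abundant gene of each list of cell markers, and the 3 genes most like each of *Ezh1* and *Ezh2*. *Gbp2*, *Psmb9*, *Procr*, *Ly6a*, *Slamf1*, *Cd48*, *Ngp*, *S100a8*, and genes named as under the minimum or at 0 are exceptions chosen after their values were seen. The value of 1 gene that this rule names is not reported here. The members and lists were chosen with earlier results of these data known.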

Additional observations from a re-analysis of the deposited data

How the results depend on the processing

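Of the 10 members, *Ezh2*, *Eed*, *Suz12*, *Rbbp4*, *Rbbp7*, *Mtf2*, and *Phf19* kept their direction and did not pass in any of the 16 alternatives, with log2 fold changes of −0.35 to −0.23, −0.20 to −0.085, −0.20 to −0.076, −0.23 to −0.099, −0.21 to −0.019, −0.16 to −0.08, and −0.34 to −0.22 in that order, and *Ezh1* kept its direction in all 16 and passed in 13. Without a trend *Ezh1* was at 0.49 (adjusted *P* = 0.206), 0 members passed, and 40 tested genes were called. DESeq2 called 504 tested genes. By the adjusted *P* alone 1 member and 561 tested genes counted as called. With 1 library left out, tested genes called ranged from 204 to 569, members with an adjusted *P* under 0.05 from 0 to 1, and log2 fold changes ranged over 0.43 to 0.54 for *Ezh1*, −0.038 to 0.10 for *Jarid2*, −0.059 to 0.031 for *Aebp2*, −0.17 to 0.076 for *Epop*, −0.17 to 0.014 for *Lcor*, −0.57 to 0.30 for *Isl1*, −0.066 to 0.028 for *Kit*, −0.071 to 0.24 for *Cd48*, −0.014 to 0.50 for *Klrb1c*, −0.68 to 0.065 for *Cd3d*, −1.08 to 0.88 for *Ncr1*, −2.46 to 0.61 for *Ltf*, −1.64 to 1.67 for *Ngp*, and −2.15 to 0.93 for *S100a8*. Except for *Ezh1*, each of these genes changed sign in at least 1 alternative. Quantile normalization gave 0.033 for *Aebp2*, 0.17 for *Kit*, and −0.036 for *Ncr1*, which was also at −0.052 with a pseudocount of 5, −0.022 with median centring, −0.21 in edgeR, and −0.21 in DESeq2. The cause of these changes was not tested.

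With the replicate number as a replicate block, *Ezh1* was at 0.49 (adjusted *P* = 0.00424, limma), 0 members and 415 tested genes were called, and the log2 ratio of *Ezh2* to *Ezh1* differed by −0.78 (exact two-sided permutation within blocks, *P* = 0.25, the smallest possible). Libraries with the same number are not known to be paired.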
